A study of Rattus norvegicus with 8 samples.

Results

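Akr1b8, a rat aldo-keto reductase of the AKR1B group, had a log2 level of 7.51 to 8.28 in reporter blood cells given plasma of another rat strain and of 2.99 to 3.16 in cells given autologous plasma, and 9 genes of the NRF2 antioxidant response were named beside it. The 10 genes are Akr1b8, Hmox1, Nqo1, Gclm, Gclc, Txnrd1, Srxn1, Slc7a11, Prdx1 and Nfe2l2. Akr1b8 was chosen on its measured ratio to autologous plasma, so that its values in those comparisons are given as a description without a test, and the others were named as known targets or the factor itself with earlier results of these arrays known. Every probe set annotated to exactly 1 of these symbols was taken, which gave 13 of the 31042 probe sets and 9 of the 10 genes. Prdx1, a peroxiredoxin, shares its 1 probe set with another symbol and therefore has no value here. A gene with several probe sets was counted by the brightest, which left 9 of 14217 genes measured.

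NRF2, encoded by Nfe2l2, is a transcription factor that is held in the cytoplasm and degraded through KEAP1. Electrophiles and oxidants release it, and it then pairs with small MAF proteins on antioxidant response elements near genes for detoxification, glutathione synthesis and the thioredoxin system. Monocytes and macrophages strongly express Hmox1, and Hmox1 and Slc7a11 also answer to other factors.

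Peripheral blood mononuclear cells (PBMCs) of 2 male Brown Norway rats, BN1 and BN2, about 180 days old, served as reporter cells, 500000 a well for 6 h in medium with 20% plasma. Normoxic control plasma was pooled from 8 male Sprague-Dawley rats kept at 21% oxygen. Plasma of rats given neonatal intermittent hypoxia (IH) was pooled from 5 animals for 5% IH and from 3 animals for 10% IH, with the exposures lasting 1 h a day on postnatal days 2 to 6. All Sprague-Dawley plasma donors were adults (PD114). The fourth plasma was autologous Brown Norway plasma, from rats about 180 days old. Each plasma was put on cells of both donors, which gave 8 arrays, 2 a plasma. Each Sprague-Dawley pool was made only once, so the spread within it is that between reporter donors and not between plasma donors. The 2 autologous arrays may differ in plasma as well as in cells. The 2 strains were kept at different sites, and the paper states an overnight fast only for the Sprague-Dawley rats. Strain, age, housing and autologous origin of the plasma cannot be told apart. In the labels the 2 autologous arrays carry conflicting donor names, and it is uncertain whose plasma went on whose cells. These 2 arrays are numbered here by their titles. The values are log2 levels from Robust Multichip Analysis (RMA), a difference of 1 being a doubling, and array medians lay between 5.53 and 5.56.

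Markers of monocytes separated the autologous arrays from the others. The mean log2 level of 8 monocyte markers was 7.31 to 7.63 on the 6 Sprague-Dawley plasma arrays and 5.13 to 5.40 on the 2 autologous arrays, while the mean of 7 T cell markers was 9.64 to 9.75 and 9.62 to 9.70. Of the 8 monocyte markers 6 were higher with each Sprague-Dawley plasma by the criterion described below. Cd14, the lipopolysaccharide co-receptor of monocytes, was higher by 5.28 with normoxic control plasma, and Fcgr3a (-0.05) and Cd163 (0.01) did not meet the criterion. In a mixed cell population fewer monocytes and less RNA per monocyte cannot be told apart. Every ratio to autologous plasma below stands beside this difference, and the part of monocytes in it was not tested.

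Promoter sequences of 4 genes are shown, 2 with the largest ratios (Akr1b8, Nqo1) and 2 that hold an antioxidant response element core but differ in response (Srxn1, Gclm). Each is the 250 bases before the RefSeq start site on GRCr8, 5′ to 3′ on the gene's strand. Capitals mark a match of TGACNNNGC or TGAGNNNGC, searched on both strands, and the matches here lie on the opposite strand and so read as reverse complements.
Akr1b8: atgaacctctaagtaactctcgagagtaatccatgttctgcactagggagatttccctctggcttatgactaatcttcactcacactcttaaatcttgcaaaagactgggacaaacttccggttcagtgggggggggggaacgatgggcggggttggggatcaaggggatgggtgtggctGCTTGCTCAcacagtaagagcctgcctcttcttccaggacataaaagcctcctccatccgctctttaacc
Nqo1: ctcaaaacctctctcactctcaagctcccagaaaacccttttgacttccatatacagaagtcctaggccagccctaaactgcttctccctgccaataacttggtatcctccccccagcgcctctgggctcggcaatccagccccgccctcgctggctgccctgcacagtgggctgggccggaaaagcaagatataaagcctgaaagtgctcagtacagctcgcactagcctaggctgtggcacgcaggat
Srxn1: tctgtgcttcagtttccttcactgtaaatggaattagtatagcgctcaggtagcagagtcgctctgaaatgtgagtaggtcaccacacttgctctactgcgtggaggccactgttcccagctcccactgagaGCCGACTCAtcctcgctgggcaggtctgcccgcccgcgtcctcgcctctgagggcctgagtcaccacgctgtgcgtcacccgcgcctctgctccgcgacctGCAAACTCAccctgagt
Gclm: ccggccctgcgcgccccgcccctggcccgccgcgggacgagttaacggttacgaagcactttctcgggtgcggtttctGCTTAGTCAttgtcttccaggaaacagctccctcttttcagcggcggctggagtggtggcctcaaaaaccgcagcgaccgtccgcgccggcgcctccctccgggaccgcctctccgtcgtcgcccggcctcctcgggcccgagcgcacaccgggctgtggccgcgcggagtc
These windows lie at chr4:63964171-63964420 (+) for Akr1b8, chr19:52220268-52220517 (-) for Nqo1, chr3:161064562-161064811 (+) for Srxn1 and chr2:213031885-213032134 (+) for Gclm.

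The Akr1b8 window held TGAGCAAGC 61 bases before the start site and the Gclm window TGACTAAGC 163 bases before it. Srxn1 held TGAGTCGGC and TGAGTTTGC, 109 and 8 bases before the start site. Of the 9 members with a window 5 held a match, the others being Prdx1 with TGACTCAGC and the second of the 2 windows of Txnrd1 with TGACAAAGC. No match stood in the windows of Nqo1, Gclc, Slc7a11 and Nfe2l2, which says only that these letters are not in these 250 bases. Hmox1 had no window and was not searched. Of 33469 rat promoter windows of this length, 10.1% held TGACNNNGC, 14.2% TGAGNNNGC and 22.8% either, so a match is common.

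Akr1b8 reduces aldehydes and ketones with NADPH. Its log2 level was 3.16 on autologous array 1 and 2.99 on autologous array 2. On BN1 and BN2 cells it was 7.83 and 8.17 with normoxic control plasma, 7.92 and 8.28 with 5% IH plasma. With 10% IH plasma it was 7.51 and 8.15. The 6 Sprague-Dawley plasma arrays were all high and the 2 autologous arrays both low, with a gap of over 4 log2 units between the groups. The autologous mean of 3.07 lay above 11.2% of all probe sets, near the dim end of the array. No detection call was used here, so whether that level is above background is not known, and the ratios and folds of Akr1b8 to autologous plasma are those of the RMA values and would be lower bounds if it is not. The mean ratio to autologous plasma was 4.93 ± 0.21 (standard error of limma, n = 2 arrays a plasma) for normoxic control plasma, a 30.4-fold difference. It was 5.03 (32.6-fold) for 5% IH plasma and 4.76 (27.0-fold) for 10% IH plasma, with the same standard error. With each array left out in turn the ratios ran over narrow ranges (4.76 to 5.10, 4.85 to 5.20 and 4.44 to 5.07).

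**Figure D1:**
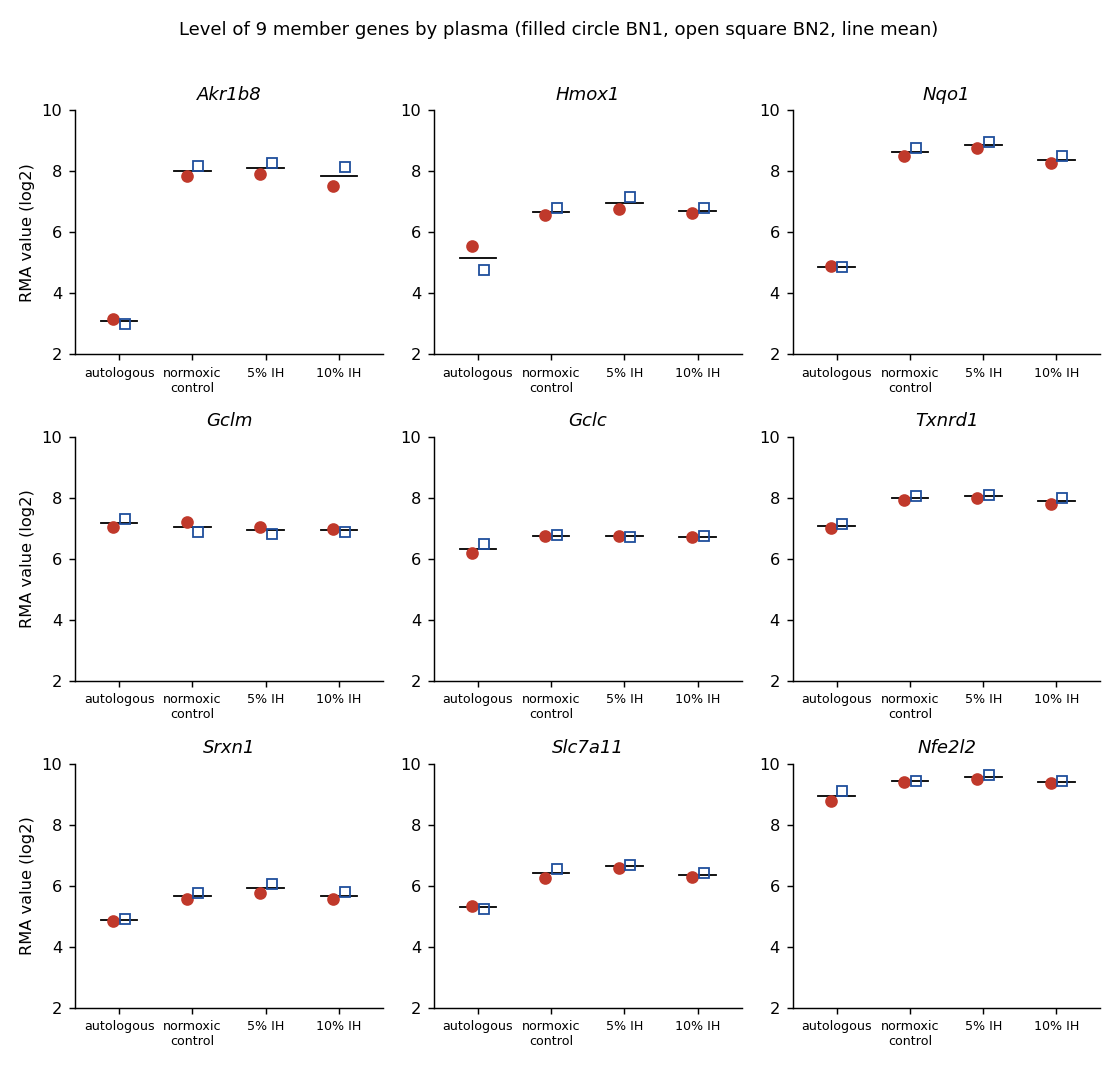
RMA log2 level of 9 member genes (1 panel each, brightest probe set) by plasma, for cells of donor BN1 (filled circles) and BN2 (open squares), with a line at the mean of the 2 arrays. The autologous arrays are marked by the donor in their titles, which other labels contradict. Akr1b8 and Nqo1 stood far higher with all 3 Sprague-Dawley plasmas than with autologous plasma, and Gclm did not.

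The other 8 measured members asked whether NRF2 target genes followed Akr1b8. By the study's criterion (Rank Product p under 0.05 and an absolute log2 ratio over 0.263, or 1.2-fold), 7 of the 8 were higher and none lower with normoxic control plasma than with autologous plasma, where 6.16% of all genes were higher. The same 7 of 8 met it with 5% IH plasma (6.24% of all genes) and with 10% IH plasma (5.39% of all genes). The genes were Hmox1, Nqo1, Gclc, Txnrd1, Srxn1, Slc7a11 and Nfe2l2, and Gclm did not meet it. limma, adjusted by Benjamini-Hochberg over the whole table, passed 5 of 8 with normoxic control plasma (2.21% of all genes higher), 6 of 8 with 5% IH plasma (2.54%) and 5 of 8 with 10% IH plasma (1.79%). The 8 genes had a median log2 ratio of 0.85, 1.02 and 0.81 in the 3 comparisons, beside medians of all genes of -0.01 in each. These comparisons share the autologous arrays and are therefore not independent of each other. With a limit on the estimated share of false predictions in place of the p, 2 of 8 genes, Hmox1 and Nqo1, were higher in each, where 0.71%, 0.767% and 0.626% of all genes were.

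Nqo1, the quinone reductase that is a classical NRF2 target, changed most among these 8. Its log2 level was 4.88 and 4.86 on the 2 autologous arrays. On BN1 and BN2 cells it was 8.49 and 8.75 with normoxic control plasma and 8.77 and 8.95 with 5% IH plasma. With 10% IH plasma it was 8.26 and 8.51. All 6 Sprague-Dawley plasma arrays lay above both autologous arrays, and the 2 autologous values were nearly the same. The log2 ratio was 3.75 ± 0.13, or 13.4-fold, for normoxic control plasma (limma, adjusted p = 4.29e-06). For 5% IH plasma it was 3.99 (adjusted p = 1.94e-06) and for 10% IH plasma 3.52 (adjusted p = 3.36e-06), by limma with the same standard error. Nqo1 ranked 8, 8 and 14 among the 14217 genes.

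Hmox1 encodes heme oxygenase, which breaks down heme. Its log2 level was 5.56 and 4.76 with autologous plasma, 6.56 and 6.79 with normoxic control plasma, 6.75 and 7.14 with 5% IH plasma and 6.62 and 6.80 with 10% IH plasma. The groups did not overlap, but the 2 autologous arrays differed by 0.80. This was the widest gap between the 2 arrays of a plasma among the brightest probe sets of the 9 genes. The log2 ratio was 1.51 ± 0.24 for normoxic control plasma (limma, adjusted p = 0.0130), 1.79 for 5% IH plasma (adjusted p = 0.00441) and 1.55 for 10% IH plasma (adjusted p = 0.0136). Fitted on the arrays of the compared groups alone, the ratio with 10% IH plasma did not pass (limma, adjusted p = 0.0866). The call of limma was lost when either array of normoxic control plasma was left out of the first comparison (adjusted p = 0.0740 without replicate 1 and 0.149 without replicate 2). It was also lost without replicate 2 of 5% IH plasma (0.0539) and without either array of 10% IH plasma (0.0816 and 0.0695).

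Slc7a11 encodes the cystine transporter that supplies cysteine for glutathione. Its log2 level was 5.35 and 5.25 with autologous plasma, 6.27 and 6.56 with normoxic control plasma, 6.59 and 6.70 with 5% IH plasma and 6.29 and 6.42 with 10% IH plasma. All Sprague-Dawley plasma arrays were above both autologous arrays. The log2 ratio was 1.11 ± 0.12 for normoxic control plasma (limma, adjusted p = 0.00130), 1.34 for 5% IH plasma (adjusted p = 0.000317) and 1.05 for 10% IH plasma (adjusted p = 0.00190).

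Gclc and Gclm encode the catalytic and modifier subunits of glutamate-cysteine ligase, the first enzyme of glutathione synthesis, and they did not move together. Gclm was 7.05 and 7.31 with autologous plasma, 7.20 and 6.89 with normoxic control plasma, 7.04 and 6.84 with 5% IH plasma and 6.98 and 6.90 with 10% IH plasma. The values with normoxic control plasma overlapped those with autologous plasma. Those with 5% IH and 10% IH plasma lay below both autologous arrays, the closest pair being 7.04 with 5% IH plasma and 7.05 with autologous plasma. The log2 ratio of Gclm was -0.13 with normoxic control plasma (95% confidence interval -0.44 to 0.18), -0.24 with 5% IH plasma (-0.55 to 0.07) and -0.24 with 10% IH plasma (-0.55 to 0.07). Gclm met the criterion as lower without autologous replicate 1 with 5% IH plasma (-0.37) and 10% IH plasma (-0.37), and without replicate 1 of 5% IH plasma (-0.34) or of 10% IH plasma (-0.28). Gclc was 6.20 and 6.50 with autologous plasma and 6.71 to 6.80 on the other 6 arrays, with no overlap. Its log2 ratios of 0.43, 0.40 and 0.39 with the 3 plasmas met the study's criterion, but limma gave adjusted p = 0.131, 0.153 and 0.229. Without autologous replicate 1 the ratios were 0.28, 0.25 and 0.24 and the criterion was met in none of the 3, and with 10% IH plasma it was also not met without replicate 2 of that plasma (0.37). The second, dimmer probe set of Gclc gave 0.31, 0.23 and 0.43, with limma adjusted p of 0.610, 0.727 and 0.429.

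Txnrd1 encodes cytosolic thioredoxin reductase. It was 7.01 and 7.14 with autologous plasma, 7.94 and 8.06 with normoxic control plasma, 8.02 and 8.12 with 5% IH plasma and 7.81 and 8.01 with 10% IH plasma, again without overlap. The log2 ratio was 0.92 ± 0.11 with normoxic control plasma (limma, adjusted p = 0.00210), 0.99 with 5% IH plasma (adjusted p = 0.00113) and 0.83 with 10% IH plasma (adjusted p = 0.00438). The dimmer probe set of Txnrd1 gave ratios of 0.89, 1.18 and 1.26 that did not pass limma (adjusted p = 0.249, 0.0885 and 0.0936). Its 2 autologous arrays, 4.53 and 5.54, were 1.00 apart.

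Srxn1 encodes sulfiredoxin, which restores overoxidized peroxiredoxins. Its brightest probe set was 4.85 and 4.91 with autologous plasma, 5.57 and 5.76 with normoxic control plasma, 5.77 and 6.08 with 5% IH plasma and 5.56 and 5.79 with 10% IH plasma. The groups did not overlap, and the log2 ratios were 0.79 ± 0.13, 1.04 and 0.80 (limma, adjusted p = 0.0185, 0.00324 and 0.0209). Fitted on the arrays of the compared groups alone, the ratio with 10% IH plasma did not pass (limma, adjusted p = 0.0528). The 3 probe sets of Srxn1 disagreed. The middle one gave 0.24, 0.28 and 0.20 and the dimmest, at levels of 3.78 to 3.95, gave -0.08, -0.02 and -0.09. The autologous means of these 2, 3.83 and 3.92, lay above 23.3% and 24.6% of all probe sets. Whether they are above background is not known. With the mean of the 3 in place of the brightest the ratio of Srxn1 was 0.31 for normoxic control plasma and 0.30 for 10% IH plasma and passed no longer (limma, adjusted p = 0.149 and 0.208). With the brightest probe set, limma's call in the comparison with normoxic control plasma was lost whichever of its 4 arrays was left out (adjusted p = 0.0703 without control replicate 1, 0.197 without control replicate 2, 0.108 without autologous replicate 1 and 0.0912 without autologous replicate 2). It was likewise lost for 10% IH plasma (0.0504 without replicate 1 of that plasma, 0.0885 without replicate 2, 0.136 without autologous replicate 1 and 0.0914 without autologous replicate 2).

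Nfe2l2, the transcript of NRF2 itself, was high in all cultures. It was 8.80 and 9.12 with autologous plasma and 9.38 to 9.63 on the other arrays, without overlap. The log2 ratio was 0.48 ± 0.12 with normoxic control plasma, 0.62 with 5% IH plasma and 0.46 with 10% IH plasma, and each met the study's criterion. By limma only the ratio with 5% IH plasma passed (adjusted p = 0.0299, beside 0.104 and 0.164), and it did not without replicate 1 of that plasma (0.116), without its replicate 2 (0.224) or without autologous replicate 1 (0.131). It also did not with donor as a block and the autologous numbers crossed (adjusted p = 0.0520), or with the arrays of the compared groups alone (adjusted p = 0.131). The ratio with normoxic control plasma passed without autologous replicate 2 (0.64, adjusted p = 0.0421). With an intensity trend in limma it passed as well, as did the ratio with 10% IH plasma (adjusted p = 0.0189 and 0.0339).

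**Figure D2:**
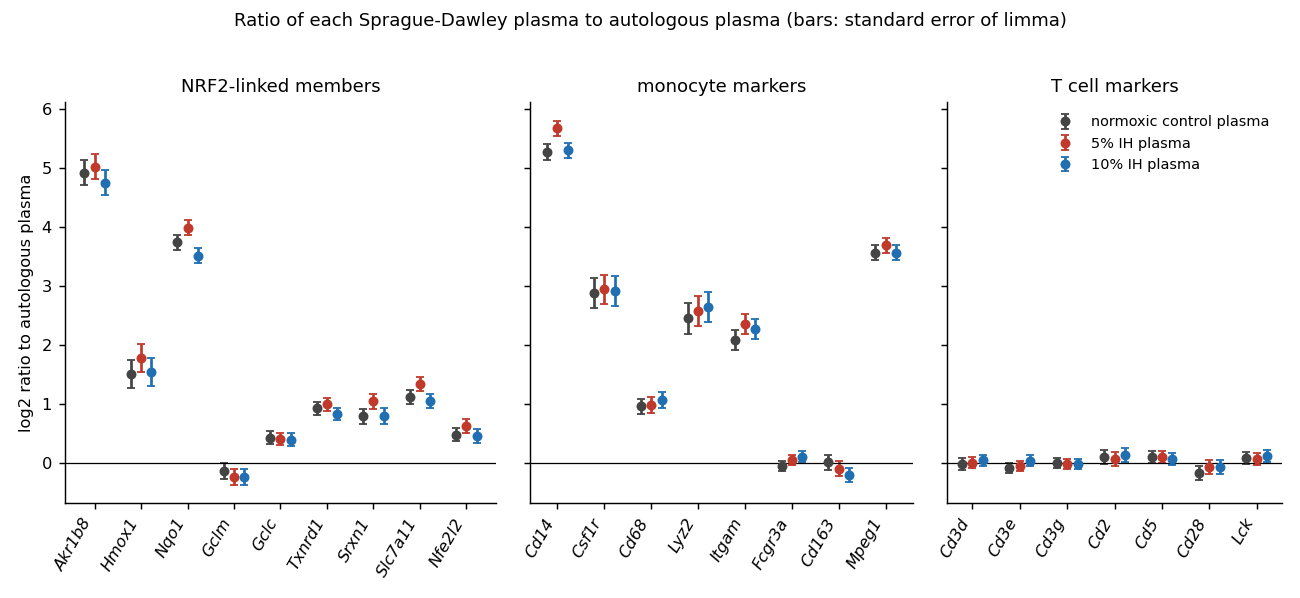
Log2 ratio of each Sprague-Dawley plasma to autologous plasma (points, coloured by plasma; bars are standard errors of limma, 2 arrays a plasma) for the member genes, 8 monocyte markers and 7 T cell markers. Akr1b8 (4.76 to 5.03) lies between the monocyte markers Mpeg1 and Cd14, Nqo1 (3.52 to 3.99) lies near Mpeg1, and the T cell markers lie near 0.

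**Figure D3:**
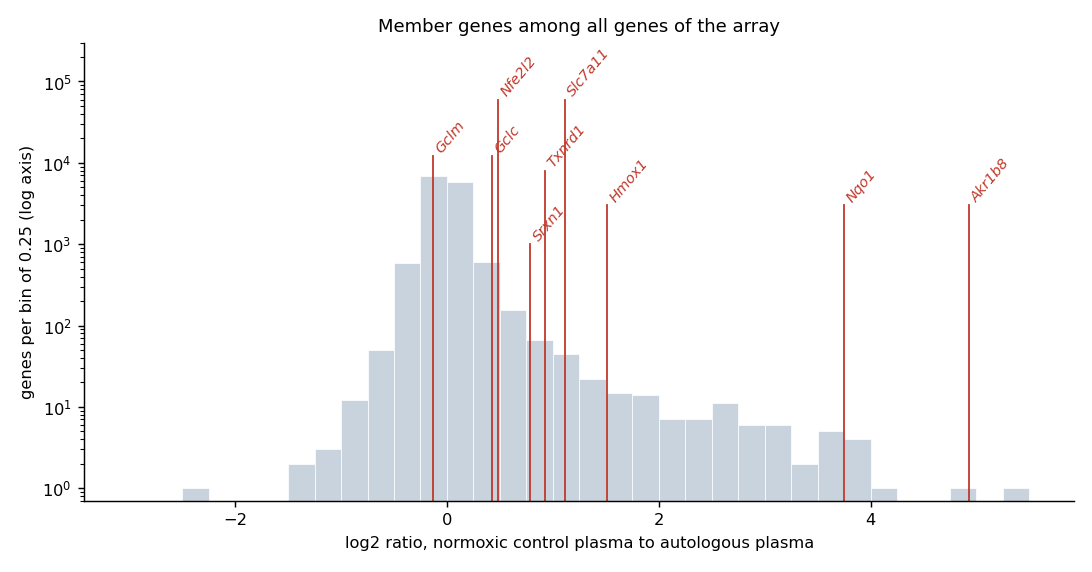
Number of genes (log axis) by log2 ratio of normoxic control plasma to autologous plasma, in bins of 0.25, for all 14217 genes, with red lines at the 9 members. Akr1b8 and Nqo1 lie in the far right tail, and Gclm (-0.13) lies in the central bins.

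The genes whose levels most resembled those of Akr1b8 over the 8 arrays were Mpeg1, C5ar1, Nqo1, Vegfa and Rbm47, with Pearson r from 0.997 to 0.998. They were ranked among the 325 genes whose highest and lowest arrays differ by at least 1 log2 unit. Of these genes 162 had an r over 0.95 and 35 over 0.99, since the 6 Sprague-Dawley plasma arrays and the 2 autologous arrays form separate clusters and r mainly records that step. Mpeg1 and C5ar1 are expressed by monocytes and macrophages. Of the other monocyte markers, Cd14 stood at place 16 (r = 0.995), Csf1r at 78, Itgam at 92, Cd68 at 110 and Lyz2 at 120. Of the members besides Nqo1, Txnrd1 stood at 44, Slc7a11 at 77, Hmox1 at 147 and Srxn1 at 150. Fcgr3a, Cd163, Gclm, Gclc and Nfe2l2 were not among the 325 genes.

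The other aldo-keto reductases did not follow Akr1b8. Akr1b1, the aldose reductase, was 8.99 and 9.01 with autologous plasma and 9.02 to 9.10 on the other arrays by its brighter probe set, a separation that did not meet the criterion. Its dimmer probe set was separated in the opposite direction, at 5.85 and 5.71 with autologous plasma and 5.34 to 5.59 on the other arrays. Akr1b7 was 2.62 to 2.93 and Akr1b10 was 4.14 to 4.51 by its brighter probe set over the 8 arrays, and both overlapped between autologous and the other plasmas. Of 14 aldo-keto reductases other than Akr1b8, none met the criterion with normoxic control plasma, where 10.1% of all genes did in either direction. Their log2 ratios ran from -0.25 to 0.17. In the 5% IH and 10% IH comparisons with autologous plasma 1 of 14 was lower, Akr1c14 (-0.42 and -0.34), where 4.18% and 3.62% of all genes were lower.

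Genes around NRF2 gave a mixed picture with normoxic control plasma against autologous plasma. Of 9 regulators and partners of NRF2, 2 were higher by the criterion, Nfe2l1 (0.43), a related factor, and Mafg (0.31), a small MAF partner, and none was lower. Among 24 genes of glutathione synthesis, use and transport other than the members 2 were higher and 3 lower, where 6.16% of all genes were higher and 3.97% lower. Mgst1, a microsomal glutathione transferase, rose by 0.59 (limma, adjusted p = 0.0335) and Chac1, which degrades glutathione, by 0.52 (limma, adjusted p = 0.0241). Gstm3 (-0.40), Mgst2 (-0.34) and Gstm2 (-0.31) were lower by the criterion.

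In the thioredoxin, peroxiredoxin and sestrin list 2 of 13 genes were higher and 3 lower, where 6.16% of all genes were higher and 3.97% lower. Prdx5, a peroxiredoxin of mitochondria and peroxisomes, rose by 2.02 ± 0.13 (limma, adjusted p = 7.52e-05), more than any member but Akr1b8 and Nqo1. Txn1, thioredoxin itself, was higher by 0.32, and Txnip (-0.55), which binds thioredoxin, Sesn1 (-0.38) and Txnrd3 (-0.27) were lower by the criterion. Of 6 NADPH-supplying genes 3 were higher. Tkt, the transketolase of the pentose phosphate pathway, rose by 0.87 (limma, adjusted p = 0.00346), and Pgd (0.58) and Taldo1 (0.34) met the criterion alone.

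Of the remaining lists, none of 7 genes of heme breakdown and ferritin met the criterion, with ratios from -0.26 to 0.02, although Hmox1 did. Of 4 superoxide and peroxide enzymes 1 was higher, the mitochondrial Sod2 (0.53). Of 11 further detoxification genes linked to NRF2, 2 were higher and 1 lower, with Ptgr1 rising by 0.58 (limma, adjusted p = 0.0262), Nqo2 at 0.29 (0.64 in BN1 and -0.06 in BN2) and Cbr3 at -0.40. Of 7 genes of the aryl hydrocarbon receptor pathway, which also induces Nqo1, 1 was lower, Tiparp (-0.31), and none was higher. The median ratio of these lists was -0.03, -0.11, -0.04 and 0.03, beside -0.01 over all genes. By the criterion 6.16% of all genes were higher in this comparison and 3.97% lower.

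The comparisons among the Sprague-Dawley plasmas asked whether neonatal IH of the plasma donor altered these levels. With 5% IH plasma against normoxic control plasma 1 of the 9 measured members was higher by the criterion and none lower, where 1.46% of all genes were higher. This was Hmox1, at a log2 ratio of 0.27 (0.19 in BN1 and 0.35 in BN2). Just below the fold threshold of 0.263 lay Srxn1 (0.26), Nqo1 (0.24) and Slc7a11 (0.23). The dimmer probe set of Txnrd1 met the criterion (0.29) and the brighter did not (0.07). In all, 7 of the 9 members were higher in cells of both donors, the exceptions being Gclm and Gclc, and 25.8% of all genes were. limma passed 0 genes after adjustment, and at an unadjusted p under 0.05 it passed 276 of 14217 genes (1.94%), none of them a member. The median ratio of the 9 genes was 0.14 and that of all genes 0.00. The count depended on single arrays, with 0 higher without control replicate 1 or without 5% IH replicate 2, 5 higher without 5% IH replicate 1, and 5 higher and 1 lower (Gclm, -0.26) without control replicate 2.

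For Akr1b8 this ratio was 0.10 (0.09 in BN1 and 0.11 in BN2), with a 95% confidence interval of -0.38 to 0.58 by limma. It was -0.07 without control replicate 1 and -0.08 without 5% IH replicate 2. Changes of up to 0.58 in log2 lie within what these arrays allow. Monocyte markers again moved alongside, with Cd14 higher by 0.40 and Itgam by 0.28 by the criterion (2 of 8 markers), and their part was not tested. Sod2 was higher by 0.28, and no gene met the criterion among the glutathione, thioredoxin, NADPH, heme, detoxification and NRF2 regulator lists.

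With 10% IH plasma against normoxic control plasma 0 of 9 members met the criterion, where 4.3% of all genes did in either direction. Nqo1 lay lowest at -0.23 in both donors (95% confidence interval -0.52 to 0.05), followed by Akr1b8 at -0.17 (-0.65 to 0.31). The dimmer probe set of Txnrd1 met it as higher (0.36, with 0.65 in BN1 and 0.07 in BN2), and the brighter lay at -0.09. The Akr1b8 value came from BN1 cells (-0.32), while BN2 cells gave -0.02, and it was 0.15 without 10% IH replicate 1. The median of the 9 ratios was -0.06 and that of all genes 0.00. limma passed 0 genes after adjustment, and 586 (4.12%) at an unadjusted p under 0.05, none a member. Akr1b8 and Nqo1 met the criterion, as lower, without control replicate 1 and also without 10% IH replicate 2. Of the surrounding lists, Txnip (0.31), Sesn3 (0.27) and the small heat shock protein Hspb1 (0.30) were higher. Among the cell type markers the B cell gene Blk was lower (-0.39) and the erythroid gene Alas2 higher (0.31), and no monocyte marker met the criterion.

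With 5% IH plasma against 10% IH plasma 3 of 9 members were higher by the criterion and none lower, where 2.63% of all genes were higher. Nqo1 had a log2 ratio of 0.47 ± 0.13 (0.51 in BN1 and 0.44 in BN2), with place 31 among 14217 genes. Slc7a11 had 0.29 (0.31 and 0.27) and Akr1b8 0.27 (0.41 and 0.13). The 2 values of Nqo1 with 5% IH plasma, 8.77 and 8.95, lay above the 2 with 10% IH plasma, 8.26 and 8.51, and those of Slc7a11 were separate too, whereas those of Akr1b8 overlapped. limma passed 0 genes after adjustment (adjusted p = 0.981 for all 3 members) and 576 (4.05%) at an unadjusted p under 0.05, among them Nqo1 and Slc7a11.

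The median ratio of the 9 genes between 5% IH and 10% IH plasma was 0.24, and that of all genes 0.00. Nqo1 alone met the criterion without 5% IH replicate 2 or without 10% IH replicate 1, and 5 members did without 5% IH replicate 1 or without 10% IH replicate 2. The ratio of Akr1b8 became -0.05 without 10% IH replicate 1. Cd14 was higher by 0.37, the only 1 of the 8 monocyte markers to meet the criterion, and its part in these ratios was not tested. Gclm had a ratio of 0.00 (95% confidence interval -0.31 to 0.31) and Gclc of 0.01 (-0.23 to 0.26). This comparison and the 2 with normoxic control plasma share arrays pairwise.

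**Figure D4:**
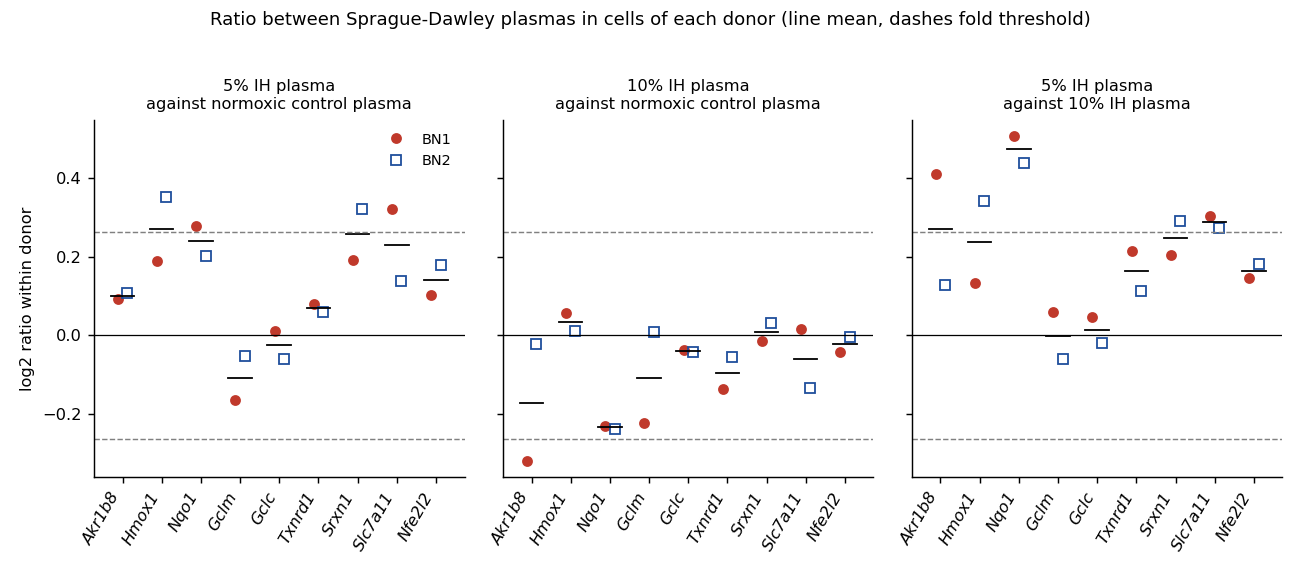
Log2 ratio between Sprague-Dawley plasmas within cells of BN1 (filled circles) and BN2 (open squares) for the 9 members, with short lines at means and dashes at ±0.263, the fold threshold. Most members lie above 0 in the comparisons of 5% IH plasma, and Nqo1 and Slc7a11 exceed the threshold in both donors against 10% IH plasma.

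The 2 reporter donors differed in these genes. With each of the 3 Sprague-Dawley plasmas BN2 cells had the higher level for 7 of the 9 members, all but Gclm and Gclc, and 16.8% of all genes showed BN2 higher with all 3. The mean of the 8 monocyte markers was also higher in BN2 than in BN1 with each. It was 7.31 in BN1 and 7.51 in BN2 with normoxic control plasma, 7.45 and 7.63 with 5% IH plasma. With 10% IH plasma it was 7.43 and 7.52, and the part of monocytes in these donor differences was not tested. For Akr1b8 the excess of BN2 over BN1 was 0.34 with normoxic control plasma, 0.36 with 5% IH plasma and 0.64 with 10% IH plasma. With autologous plasma it was -0.17. Hmox1 changed sign likewise, from 0.18 to 0.39 with the Sprague-Dawley plasmas to -0.80 with autologous plasma. Nqo1 (-0.02 with autologous plasma) and Slc7a11 (-0.10) changed sign too. If the conflicting donor names of the autologous arrays are crossed, these become 0.17 for Akr1b8 and 0.80 for Hmox1, and neither changes sign. Nor do Nqo1 (0.02) and Slc7a11 (0.10). Txnrd1, Srxn1 and Nfe2l2 kept their sign by the titles (0.13, 0.05 and 0.32 with autologous plasma) but change it when crossed (-0.13, -0.05 and -0.32). With 1 array per donor and plasma these differences have no replicate, and those with autologous plasma may also hold a difference of plasma.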

How the data were processed

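Levels were measured in reporter PBMCs of 2 donors under 4 plasmas on 8 Affymetrix rat expression arrays. The deposited values are log2 levels that the authors made with Expression Console and RMA, which corrects background, normalizes by quantiles and summarizes probe sets. The submitters' processing notes also name Partek. The table holds 31042 probe sets without missing values, of which 20826 carry 1 gene symbol in the platform annotation, 436 several and 9780 none. No value was rescaled. RMA on 2 arrays a group limits the precision, and quantile normalization assumes like distributions in all cultures.

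The study's criterion was applied with a Python implementation of the Rank Product (4 between-array ratios, 100 permutations within arrays, 1-sided p under 0.05 in either direction, absolute log2 ratio over 0.263). The 4 groups were also fitted together, with no term for donor, in limma 3.58.1 (R 4.3.3), and p-values were adjusted by Benjamini-Hochberg over the whole table. Standard errors and 95% intervals are limma's. Both steps were tested on data made with known changes. Numbers pair the arrays because the labels give 1 reporter donor a number. Deviations from group means of same-numbered arrays correlated at 0.240 (normoxic control and 5% IH), 0.0590 (normoxic control and 10% IH) and 0.165 (5% and 10% IH), and at -0.00387, -0.0833 and -0.171 with autologous plasma.

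The members and all lists (11 pathway lists, 7 marker lists) were chosen with earlier results of these data known. All probe sets with 1 member symbol are described. Named beside them are the 5 genes with the highest r with Akr1b8, 3 AKR1B relatives, and per list up to 3 of the largest rises and falls that met the criterion. The values that decided Akr1b8 are its ratios to autologous plasma. Alternatives were a share of false predictions, ratios within donor, limma, a donor block, a filter at the 40th percentile of level, median centring, quantile normalization again, averaged probe sets per gene, an intensity trend, the compared arrays alone and each array left out. Promoters came from RefSeq (GRCr8).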

Additional observations from a re-analysis of the deposited data

How the results depend on the processing

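With a share of false predictions under 0.05 in place of the p, 2, 2 and 2 of the 8 members met the criterion for normoxic control, 5% IH and 10% IH plasma against autologous plasma, 0 of 9 for 5% IH against normoxic control plasma and 0 for 5% IH against 10% IH plasma. Median centring gave 2 for 5% IH against normoxic control plasma. limma gave 0 for 5% IH against normoxic control and 0 for 5% IH against 10% IH plasma, and limma with donor as a replicate block gave 0 and 0. That block changed no other count by over 1.5 times, and the pairing with the autologous numbers crossed, an alternative chosen after seeing the data, gave 5, 5 and 5 of 8 against autologous plasma. With each array left out the counts in either direction were 6 to 7, 7 to 8 and 6 to 8 against autologous plasma, 0 to 6 for 5% IH and 0 to 2 for 10% IH against normoxic control plasma, and 1 to 5 for 5% IH against 10% IH plasma. Of these, 6 to 7 members were higher in each comparison with autologous plasma and at most 1, Gclm, was lower. The causes of these moves were not tested. Of 510 recomputed values of single members, 486 stayed on their side of limma's threshold, 21 lost a call of limma, 3 gained one and none reversed a call. In 24 an uncalled ratio changed sign, the largest of them 0.27. With 2 arrays a plasma, no ratio among the Sprague-Dawley plasmas passed limma after adjustment, so these ratios, which are among the 510, had no call to lose. The calls that could be lost were those against autologous plasma. There limma had passed 5, 6 and 5 of 8 members with normoxic control, 5% IH and 10% IH plasma.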

Other observations

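The list of ATF4 amino acid response genes held Chac1, which is also in the glutathione list, and did not hold Slc7a11. With normoxic control plasma against autologous plasma 5 of its 10 genes were higher (criterion, 6.16% of all genes higher). With 5% IH plasma 6 of 10 were higher (6.24% of all genes) and with 10% IH plasma 7 of 10 (5.39% of all genes). limma passed 2, 3 and 1 of the 10 as higher in the 3 comparisons, where 2.21%, 2.54% and 1.79% of all genes were. Asns, asparagine synthetase, had a log2 ratio of 0.66 with normoxic control plasma (limma, adjusted p = 0.0170) and Psat1, of serine synthesis, 0.46 (limma, adjusted p = 0.134). The median of the list was 0.33, 0.43 and 0.31 in the 3 comparisons. None of the 10 met the criterion in 5% IH or 10% IH plasma against normoxic control plasma.

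In the list of heat shock and metallothionein genes none of 8 was higher with normoxic control plasma than with autologous plasma and 2 were lower, the metallothioneins Mt1 (-0.40) and Mt2A (-0.34). Other marker lists moved less than that of monocytes in the same comparison, where 6.16% of all genes were higher and 3.97% lower. Of 7 neutrophil markers 3 were higher, with Csf3r at 0.87 (limma, adjusted p = 0.0195), and of 4 B cell markers 1 was, Blk at 0.77 (0.0224). Of 6 natural killer cell markers 1 was lower, Gzmb at -0.33 (limma, adjusted p = 0.699). Of 5 erythroid markers 1 was lower, Slc4a1 at -0.29 (limma, adjusted p = 0.747), and none of 5 platelet markers met the criterion.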
